A study of Homo sapiens with 40 samples.

Results

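EGF-treated BT474R cells were compared with vehicle-treated BT474R cells after 1 h by ATAC-seq, which reads accessible DNA from the places where a transposase could cut and tag it. The comparison used every peak list labelled for these conditions, 2 with EGF and 2 with vehicle, out of 40 lists in the series. BT474R is a trastuzumab-resistant clone of BT474, a breast cancer cell line in which HER2 is overexpressed, so all results in it rest on 1 clone. Cells were serum-starved in both arms and then given epidermal growth factor (EGF) or water as vehicle (control), so that the arms shared the starvation and the time and differed in the ligand. The series also holds baseline (0 h) cells, cells given heregulin (HRG, which binds HER3 and HER4), later times of 12 h and 24 h, and the sensitive parent line BT474, with 2 libraries in each of its 20 groups. A replicate is a separate library of the same condition, and nothing in the labels says whether the 2 came from separate cultures. The values below therefore carry the spread between 2 libraries, which may be technical.

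EGF binds EGFR, which pairs with HER2 in these cells and signals through RAS and the MAP kinases. Within the first hour this pathway induces immediate early genes, among them FOS and JUN, whose proteins form the AP-1 dimers that bind enhancers. Peaks here are intervals in which the peak caller found a local excess of transposase cuts, and "open" means that a library's list held a peak at a region. The lists carry no read totals, so the depth of each library is unknown, and a region without a peak is one where none was called.

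The peaks of the 4 lists on chromosomes 1 to 22 and X were merged wherever they overlapped by at least 1 bp, giving 59090 regions. A region was gained if it was open in 2 of 2 EGF and 0 of 2 control libraries, and lost in the opposite case. By this rule 481 regions were gained and 3438 were lost, 0.814% and 5.82% of all regions. Because the EGF lists were shorter, each list was also limited to its 47474 highest-scoring peaks, the number in the shortest list. With these equal numbers 1292 regions were gained and 1219 were lost, 2.46% and 2.32% of the 52466 regions that still held a top peak. Open here means a peak among the top ones. Only 27.2% of these gained regions were also gained as deposited, and the others had a peak below the cut in at least 1 control list. Of these lost regions 61.9% were also lost as deposited. Regions gained or lost under both definitions are called strictly gained, 352 regions or 0.596%, and strictly lost, 754 regions or 1.28%. Gained regions were thus 12.3% of the called regions in the deposited lists and 51.5% with equal numbers, so the balance of gains and losses depended on list length. No region can be called by a test on presence alone, since 2 libraries against 2 cannot give an exact permutation p under 0.333.

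The sequences below are 201 bp windows (hg38, plus strand) centred on the summit of the strongest peak. AP-1 motifs (TGAGTCA or its reverse complement TGACTCA) are in capitals. The first 4 are the strictly gained regions with the highest mean rank, and the next is a region of THSD4 whose highest peak ranked higher with EGF. THSD4 is not a gained region and is 1 of the 2 with AP-1 among the 9 regions higher in rank. The windows of PLK2, IKZF3 and BHLHE40, also among the 9, hold none. The last 2 are the highest-ranked strictly lost regions.
MYO5B intron, chr18:50081323-50081523: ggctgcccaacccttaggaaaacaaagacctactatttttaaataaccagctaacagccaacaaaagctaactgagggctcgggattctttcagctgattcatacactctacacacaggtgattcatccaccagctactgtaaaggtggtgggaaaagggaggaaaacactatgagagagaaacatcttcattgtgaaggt
MAP2K6 intron, chr17:69540113-69540313: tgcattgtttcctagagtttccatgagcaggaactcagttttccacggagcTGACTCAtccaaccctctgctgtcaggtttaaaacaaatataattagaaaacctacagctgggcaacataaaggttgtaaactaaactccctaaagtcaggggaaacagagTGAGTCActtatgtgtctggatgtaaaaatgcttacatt
BORCS5 intron, chr12:12398408-12398608: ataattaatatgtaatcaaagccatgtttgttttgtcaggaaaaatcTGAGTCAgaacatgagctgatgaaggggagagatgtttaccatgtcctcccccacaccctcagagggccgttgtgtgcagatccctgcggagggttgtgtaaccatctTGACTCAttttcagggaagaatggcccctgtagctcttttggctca
Downstream of GDF15, chr19:18390630-18390830: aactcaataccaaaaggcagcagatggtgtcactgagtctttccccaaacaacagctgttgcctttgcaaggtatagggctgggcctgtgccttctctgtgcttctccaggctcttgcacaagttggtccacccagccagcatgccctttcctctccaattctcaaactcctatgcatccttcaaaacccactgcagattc
THSD4 intron, chr15:71747561-71747761: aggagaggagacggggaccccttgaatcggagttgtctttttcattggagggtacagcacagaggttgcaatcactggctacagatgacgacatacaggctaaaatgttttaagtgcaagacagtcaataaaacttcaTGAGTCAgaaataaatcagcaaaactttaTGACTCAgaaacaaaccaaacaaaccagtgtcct
Intergenic, nearest TAFA5, chr22:49015681-49015881: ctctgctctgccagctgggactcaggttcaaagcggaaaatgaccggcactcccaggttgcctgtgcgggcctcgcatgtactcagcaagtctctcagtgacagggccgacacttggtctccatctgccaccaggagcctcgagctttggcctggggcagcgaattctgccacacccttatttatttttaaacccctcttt
GPRC5C intron, chr17:74427185-74427385: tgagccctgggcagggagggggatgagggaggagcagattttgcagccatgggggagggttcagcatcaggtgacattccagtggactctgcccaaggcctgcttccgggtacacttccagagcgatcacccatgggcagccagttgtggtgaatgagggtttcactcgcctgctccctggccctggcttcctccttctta
The MAP2K6, BORCS5 and THSD4 windows each hold 2 AP-1 motifs, on either side of the summit in the first 2, while the MYO5B, GDF15, TAFA5 and GPRC5C windows hold none.

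The EGF libraries held fewer peaks than the control libraries. The lists held 51503 and 47474 peaks with EGF and 56494 and 54256 with vehicle, a difference of -5886.5 between means (exact permutation p = 0.333, two-sided, the smallest that 2 against 2 allows). Peaks covered 31.2 and 29 Mb with EGF and 32.3 and 34.1 Mb with vehicle. Replicates shared 84.4% (EGF) and 84.2% (control) of their covered bases, and EGF and control lists shared 79.2 to 81.7%. Promoters of the luminal epithelial markers KRT7, KRT8, KRT18, KRT19, EPCAM, CDH1, ERBB2, GATA3, FOXA1 and ESR1 were open in all 4 libraries. Of the markers of other cell types, PTPRC, CD3E, COL1A2, PECAM1, DES and MYOD1 were open in none, and COL1A1 and CDH5 in all 4.

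The regions gained after EGF were mostly distal, and AP-1 motifs were common among them. Of the 481 gained regions, 63.6% lay in introns and 13.9% overlapped a promoter (within 1 kb of a transcript start), against 34.4% at promoters over all regions. Their median distance to a protein-coding transcript start was 19.1 kb, against 8.79 kb over all regions. The AP-1 motif lay within 100 bp of the summit in 240 of 481 gained regions, 49.9% (exact 95% interval 45.3 to 54.5%), and in 99 of 3438 lost regions, 2.88%. Over all 59090 regions the share was 11.4%. Regions open in 1 EGF and 1 control library, which are also weak peaks, held it in 13.9% of 1292. Median percentiles were 6.07 (EGF) and 8.66 (control) in these and 11.6 in the EGF libraries for gained regions. The intervals cover counting error over regions and not the spread between libraries.

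The AP-1 share also differed between gained and lost regions with equal numbers of peaks and in the strict sets. It was 43.2% in the 1292 regions gained with equal numbers and 1.72% in the 1219 lost. In the strict sets it was 50.6% of 352 and 0.928% of 754. In the regions gained with equal numbers the sites lay a median of 32 bp from the summit, and 69 of these regions held 2 or more of them. Other motifs were searched in the same windows on both strands, and none of those named here contains the AP-1 letters. The cAMP-response element TGACGTCA was in 7 gained regions, or 1.46%, against 0.777% of all and 0.145% of lost regions. The CArG box, the site of serum response factor, was in 8, or 1.66%, against 0.844% and 0.785%. Both shares over all regions lay inside the exact intervals of the gained shares, 0.587 to 2.98% and 0.721 to 3.25%. With equal numbers these motifs were in 0.851% and 1.39% of gained regions, against 0.164% and 0.574% of lost ones. The GATA motif AGATAA was in 14.1% of gained regions against 7.97% of all and 10.7% of regions open in 1 library of each arm. In the regions gained with equal numbers it was in 11%. Promoter-type motifs were scarcer in gained regions, with the GC box GGGCGG in 5.82% against 21.6% of all and the ETS motif CCGGAAG in 0.624% against 4.39%. They were also scarcer in regions open in 1 library of each arm, at 11.9% and 2.4%, and in lost regions, at 10.4% and 1.45%. Gained regions also had a lower GC content, 45.3% against 54% over all regions and 51.8% in lost ones. The part of base composition in the motif shares was not tested.

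**Figure D1:**
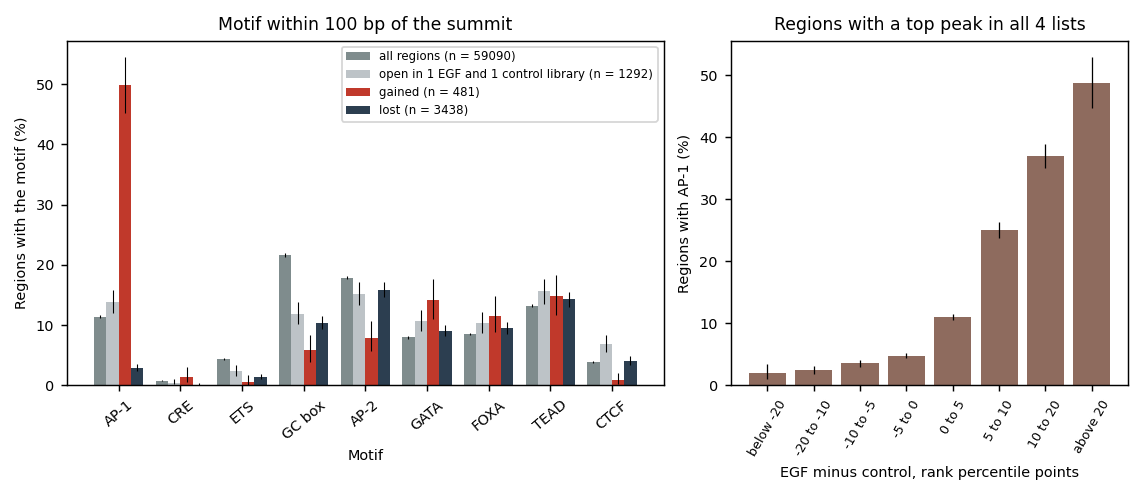
Left, share of regions (%) with each motif within 100 bp of the summit, for all regions, regions open in 1 EGF and 1 control library, gained and lost regions, with exact 95% intervals. AP-1 stands at 49.9% in gained regions and 2.88% in lost ones. Right, share of regions (%) with AP-1 by EGF minus control rank difference, among regions with a top peak in all 4 lists, rising from 2.05% to 48.8%.

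Lost regions were near the regions open in 1 library of each arm in width, place and most motifs. Their median width was 307 bp, against 290 bp for regions open in 1 EGF and 1 control library and 487 bp over all. Promoters made up 20.2% of lost regions, GATA motifs were in 9.08%, FOXA motifs (TGTTTAC) in 9.54% and AP-2 motifs (GCCNNNGGC) in 15.9%. The regions open in 1 library of each arm had 22.3%, 10.7%, 10.4% and 15.2%. With equal numbers 21.9% of lost and 73.2% of gained regions kept their call, a contrast that the cutting of the longer control lists favours. AP-2 motifs were in 20.2% of strictly lost and 7.95% of strictly gained regions, against 17.9% of all. TFAP2A and TFAP2C, which bind that motif, are known as factors of luminal epithelium.

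The strictly gained regions with the highest ranks lay at genes of several functions. Ranks are given as the percentile of the peak's score within its own deposited list, where 100 is the top peak, since scores depend on the depth of their library. The first was in an intron of MYO5B, a myosin of recycling endosomes, with percentiles of 55.8 and 53 in the EGF libraries and no peak in either control library (chr18:50081013-50081551). The second was in an intron of MAP2K6, a kinase of p38, at 55.6 and 52.6 (chr17:69539702-69540420). BORCS5, a subunit of a lysosome-positioning complex, had an intronic region at 48.5 and 46.1 (chr12:12398111-12398707). Both EGF libraries placed these 3 regions near the middle of their lists, so they were not marginal peaks.

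Of the 10 highest, 3 lay beyond the 3′ end of a gene. One began 861 bp past the end of GDF15, a stress-induced cytokine of the TGF-beta family, at percentiles of 56 and 37.9 (chr19:18390038-18391282). Another began 297 bp past the end of SAT1, which acetylates polyamines, at 73.6 and 8.31 (chrX:23786508-23788014). The third was downstream of PLK2, a serum-inducible polo-like kinase, at 46.2 and 44.4 (chr5:58445582-58447064). The SAT1 region differed far more between the EGF libraries than the other 2 did. Among all gained regions 3.12% lay within 5 kb past a protein-coding gene's end and outside any gene, against 3.19% over all regions, so gained regions as a whole were not more often there.

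The other 4 were at NTN4, COA1, PFKP and SCMH1. The region nearest NTN4, which encodes a netrin of basement membranes, had percentiles of 53.7 and 34.4 (chr12:95805828-95806610). An intronic region of COA1, a mitochondrial assembly factor, had 39.7 and 41.2 (chr7:43674560-43674916). PFKP, which encodes the platelet isoform of phosphofructokinase, had an intronic region at 37.4 and 42.9 (chr10:3095370-3095982), and SCMH1, a Polycomb-group gene, one at 40.5 and 36.5 (chr1:41238265-41238791). Of the 10 regions, 5 held AP-1, namely those of MAP2K6, BORCS5, COA1, PFKP and SCMH1, and 4 of these held 2 sites. None of the 10 was open in either BT474R baseline library, and 7 were open in both BT474R libraries given EGF for 24 h.

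**Figure D2:**
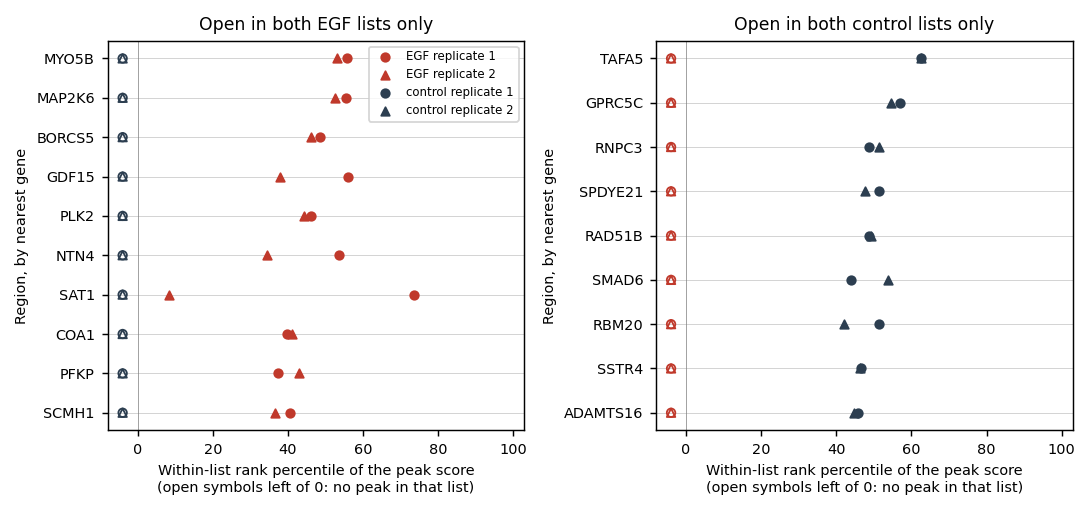
Within-list rank percentile of the peak score in each of the 4 libraries, for the 10 strictly gained regions of highest rank (left) and 9 of the 10 strictly lost ones (right). Open symbols left of 0 mark libraries with no peak. Both replicates of the open arm lie between 34.4 and 73.6 except SAT1 in EGF replicate 2, at 8.31.

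The strictly lost regions with the highest ranks were mostly far from genes. The first was intergenic, 322534 bp from the nearest protein-coding start, that of TAFA5 (chr22:49015579-49016658), and had a percentile of 62.6 in both control libraries. The next was in an intron of GPRC5C, an orphan receptor, at 56.9 and 54.5 (chr17:74427122-74427780). Both had no peak with EGF. The next 3 were an intergenic region nearest RNPC3 at 48.8 and 51.3 (chr1:103326070-103326888), one nearest SPDYE21 at 51.5 and 47.7 (chr7:67776679-67777433) and an intronic region of RAD51B, a recombination gene, at 48.6 and 49.2 (chr14:67941247-67942088). The control replicates lay close together at these 5 regions.

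An intron of SMAD6, an inhibitor of BMP signalling, followed at 43.9 and 53.8 (chr15:66763158-66764021). RBM20, a splicing regulator, was the only one of the 10 at a promoter, with 51.3 and 42 (chr10:110834698-110835224). Others were nearest SSTR4, at 46.6 and 46.2 (chr20:22810645-22811613), and ADAMTS16, at 45.9 and 44.8 (chr5:4383554-4384193). None of the 10 held AP-1, and 8 of them were open in both baseline libraries.

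Most regions were open in every library, so rank within the list was compared for the 40996 regions with a top peak in all 4 lists. Regions that were gained or lost are by construction not among them. Ranks are here percentiles among the 47474 top peaks of each list, and limma was fitted to them across all tested regions. The median difference, EGF minus control, was 0.0653 percentile points. At an adjusted p under 0.05, 9 regions were higher with EGF (0.022% of those tested) and 20 were lower (0.0488%), and 7179 had an unadjusted p under 0.05. In 26.1% of tested regions both EGF libraries ranked above both control libraries, and in 23.6% both ranked below. A region's value is that of its highest-scoring peak, so it also moves when 1 peak is called in pieces. Of the 9 higher regions, 8 had more peaks in both control libraries than in either EGF library, against 0.166% of tested regions. Of the 20 lower regions, 18 had more peaks in both EGF libraries, against 0.324%. With the scores of all peaks in a region summed, 4 of the 29 remained called, at PLK2, MCTP2, FASN and GPC1. The other 25 values are therefore given as ranks of the highest peak and not as levels of the whole region.

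Regions with AP-1 ranked higher with EGF in the median, also where no peak was split, and their share rose across the range of rank differences. The 4581 tested regions with AP-1 had a median difference of 4.82 percentile points (quartiles 0.955 and 10.5), and the 36415 without it had -0.163 (quartiles -3.78 and 2.21). Both EGF libraries ranked above both control libraries in 60.2% of regions with AP-1 and in 21.8% of the others. Both ranked below in 6.4% and 25.8%. Among regions with 1 peak in each of the 4 lists the medians were 4.91 points for 4400 regions with AP-1 and -0.125 for 34459 without. With summed scores they were 4.75 and -0.153. The shift was present in every pair of libraries. Medians for AP-1 regions were 3.79 and 4.98 points for EGF replicate 1 against control replicates 1 and 2, and 4.5 and 5.55 for EGF replicate 2. Between the EGF replicates the median was -0.409, and between the control replicates 1.03. AP-1 was in 48.8% of the 588 regions that were more than 20 points higher with EGF and in 2.05% of the 635 that were more than 20 points lower. Among the other motifs the largest median was that of STAT (TTCNNNGAA), 0.734 points over 2106 regions.

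The rise with the smallest p was beyond the 3′ end of PLK2. A region that began 396 bp past the gene's end (chr5:58449989-58453585) had ranks of 97.7 and 97.8 with EGF and of 76.5 and 75 with vehicle. The difference was 22 ± 0.824 (SE, limma adjusted p = 0.0201). Peaks there covered 3356 and 2980 bp with EGF and 1279 and 2169 bp with vehicle, so the stretch was both wider and higher-ranked. It was called as 1 peak in both EGF libraries and as 1 and 2 in the controls, and with summed scores the difference was 18.3 points (limma adjusted p = 0.0418). The strictly gained region described above lies further along the same flank. At BHLHE40, which encodes a basic helix-loop-helix repressor, a region that began 219 bp past the gene's end (chr3:4985543-4987395) had 93.7 and 92.7 with EGF and 71 and 72.7 with vehicle. That is a difference of 21.4 ± 1.11 (limma adjusted p = 0.0221), but with summed scores it was 2.89 (limma adjusted p = 0.0675). PLK2 and BHLHE40 were the 2 of the 9 regions within 5 kb past a gene's end, a position held by 1262 of all 40996 tested regions.

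The other 7 regions were each called as 1 peak in both EGF libraries and as 2 in both control libraries. THSD4 had an intronic region with 2 AP-1 sites (chr15:71746500-71748118), at 95.1 and 95.5 with EGF and 75.4 and 75.3 with vehicle. Its difference was 19.9 ± 0.766 (limma adjusted p = 0.0201), and 1.98 with summed scores. The promoter of IKZF3, a lymphoid zinc finger gene next to ERBB2 in the HER2 amplicon, was at 98.1 and 98.1 with EGF and at 88.4 and 88.1 with vehicle (difference 9.83 ± 0.403, limma adjusted p = 0.0201), with 1.24 on summed scores and a turned sign, -0.0379, when ranked by −log10 p. GSPT1, a translation termination factor, had a promoter region at 97.5 and 97.2 with EGF and at 90.2 and 90.1 with vehicle. IP6K3, an inositol hexakisphosphate kinase, had 87.7 and 87.8 against 62.6 and 62.2, a difference of 1.35 with summed scores. Regions at APOO, ARHGEF4 and nearest MCTP2 made up the rest, with differences of 27, 47.4 and 9.88 points. At MCTP2 the difference with summed scores was 6.33 (limma adjusted p = 0.0311). ARHGEF4 had the largest of the 9, at 63.5 and 65.4 with EGF and 16.5 and 17.7 with vehicle, and 17.4 points with summed scores (limma adjusted p = 0.0723). In each of these 7 the ranks of the highest peak did not overlap between the arms, which their choice by limma on these same ranks favours.

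The segment of chromosome 17 around ERBB2 is amplified in BT474, and copy number adds cuts to every peak in it. From SRCIN1 to MED24 (chr17:38530031-40061215) peaks covered 457 and 477 kb with EGF and 418 and 421 kb with vehicle. Of 192 tested regions in it, both EGF libraries ranked above both control libraries in 99, or 51.6%, against 26.1% of all tested regions. The median difference in the segment was 1.08 points. Its covered length was 506 and 475 kb in the BT474R control libraries at 12 h, so values above those of the 1 h controls also occurred without EGF. Its part in the IKZF3 value was not tested, and the segment was chosen after the values were seen.

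The largest fall was in the body of FASN, which encodes fatty acid synthase. A broad region within the gene (chr17:82080098-82091612) had ranks of 16 and 10.2 with EGF and of 90.1 and 97.8 with vehicle, a difference of -80.8 ± 4.2 (SE, limma adjusted p = 0.0221). With summed scores it was -49.2 (limma adjusted p = 0.0311). Peak scores there were 308 and 240 with EGF and 1836.7 and 3437.5 with vehicle. Over the whole gene of 19957 bp, peaks covered 5263 and 3917 bp with EGF and 15624 and 15358 bp with vehicle. The promoter at the start of the FASN gene ranked at 99.9 and 99.9 with EGF and at 100 and 100 with vehicle, and the called difference was in the gene body. Coverage of the gene also varied between replicates elsewhere, with 13847 and 5255 bp at baseline. In BT474R it was 10369 and 12994 bp with HRG for 1 h and 18534 and 18566 bp with EGF for 24 h.

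**Figure D3:**
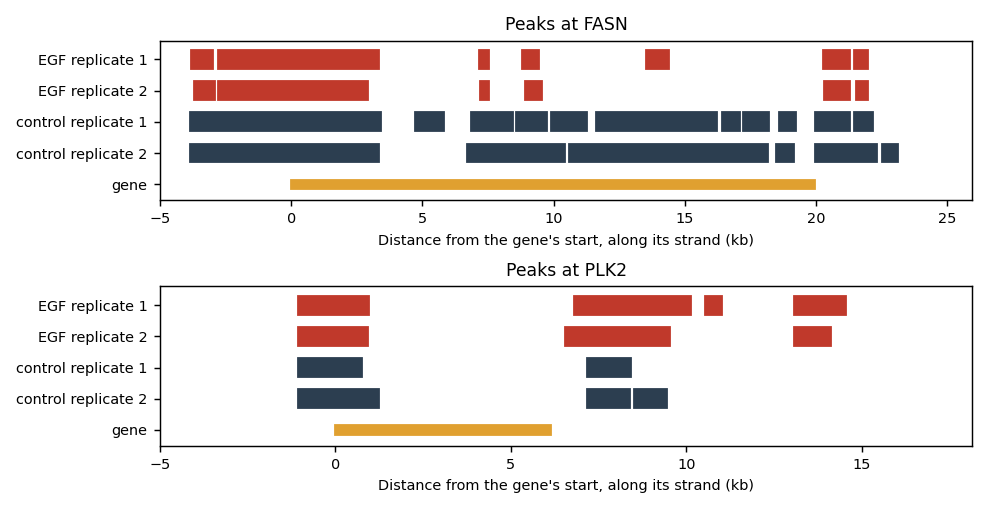
Peak intervals of each of the 4 libraries at FASN and PLK2, by distance in kb from the gene's start along its strand, with the gene as a yellow bar. At FASN the control peaks run through the gene body, where the EGF peaks cover 5263 and 3917 bp of the gene in all. At PLK2 the EGF peaks past the 3′ end are wider and 1 further peak is present only with EGF.

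The other 19 regions that ranked lower were mostly broad promoter regions, near the top of the control lists and split into 2 or 3 peaks with EGF. Promoters made up 15 of the 20, against 40.4% of tested regions. This count includes the FASN region, which lies within 1 kb of an annotated transcript start. The mean GC content of the 20 was 62%. None held AP-1, and 18 were open in all 40 libraries of the series. In 19 of the 20 both EGF libraries had less covered length than either control library, and in 18 both had more peaks. GPC1, a heparan sulfate proteoglycan, had 79.6 and 79.1 with EGF and 97 and 98.7 with vehicle, a difference of -18.5 ± 0.795 (limma adjusted p = 0.0201). Its summed scores differed by -2.2 points (limma adjusted p = 0.0418). SDC4, another such proteoglycan, had 94.4 and 94.4 with EGF and 99.2 and 99.1 with vehicle (difference -4.77 ± 0.286, limma adjusted p = 0.0328), and its summed scores differed by -0.25 points. GPC1 thus kept its call on the whole region and SDC4 did not.

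EPS8L2, CELSR1 and KREMEN2 had 2 peaks in both EGF libraries and 1 in both control libraries. EPS8L2, which links growth factor receptors to actin, had 65.6 and 64.4 with EGF and 87.6 and 88.4 with vehicle. CELSR1, a planar polarity cadherin, had 79.8 and 81.9 against 94.8 and 95.9. KREMEN2, a receptor for the WNT inhibitors of the Dickkopf family, had 74.4 and 72.7 against 90.3 and 92.4. The ranks of the highest peak did not overlap between the arms, which the choice of these regions by the same ranks favours. Limma adjusted p ran from 0.0337 to 0.0422. With summed scores the 3 differences were -5.41, -2.45 and -0.392 and none was called, and ranked by −log10 p that of KREMEN2 turned to 4.6. A further 13 were at or nearest TSNARE1, PLEKHA6, RRN3, PHLDA3, TMEM143, SLC26A1, TTC7B, TENM2, CYC1, SLC2A10, TBC1D16, HMGN4 and TG, with differences between -4.41 and -23.8 points.

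**Figure D4:**
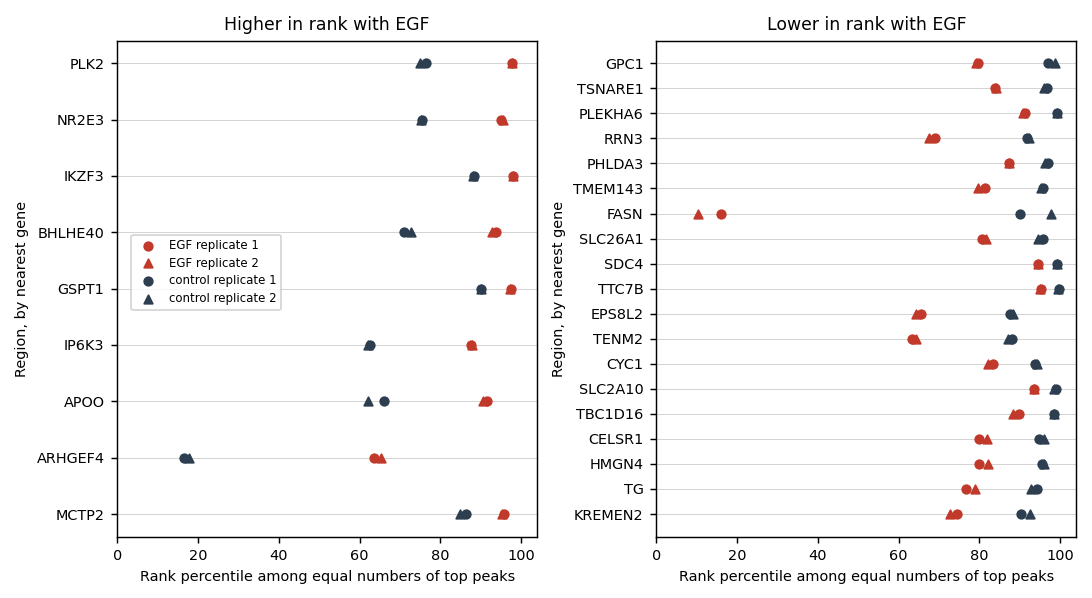
Rank percentile among equal numbers of top peaks in each of the 4 libraries, for the 9 regions that were higher with EGF and 19 of the 20 that were lower. The THSD4 region is shown under NR2E3, the gene with the nearest start. Values are those of the highest peak, and at 8 of the 9 and 18 of the 20 regions the arms also differed in the number of peaks. FASN shows the largest difference, from 90.1 and 97.8 with vehicle to 16 and 10.2 with EGF.

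The rank calls depended on the score. The score is the area under the significance curve and so grows with the width of a peak. Ranking by the peak's −log10 p instead gave 80 regions higher and 7 lower, and 2 of the 29 named regions, at APOO and nearest MCTP2, remained called. Of the 80 higher regions 51 held AP-1. Without EGF replicate 1, or without EGF replicate 2, no region was called in either direction (4501 and 4405 had an unadjusted p under 0.05), although all 29 kept their sign.

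Immediate early genes, the first genes transcribed after growth factor stimulation, already had open promoters in the control cells. Of 29 such genes, 28 had a promoter open in all 4 libraries and 1, CCN2, in none. No promoter of the list passed the limma threshold. Over the 28 tested promoters the median difference was 0.51 points, against 0.0484 over all 16558 tested promoter regions. Both EGF libraries ranked above both control libraries at 14 of them and below at 4, where 21.7% and 19.4% of all tested promoter regions did so. The list has a single promoter region per gene, while all tested promoter regions include every one within 1 kb of any transcript start. The sets are therefore unlike. EGR1 ranked at 99.6 and 99.7 with EGF and at 99.5 and 99.6 with vehicle, and JUN at 99.4 and 99.4 against 99.5 and 99.5. FOS ranked at 70.2 and 69 with EGF and between the control values of 62.2 and 73.2. EGR1 and JUN thus lay at the top of the lists in both arms.

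The promoters of single genes named from here on were chosen after their values were seen. FOSL1, KLF2 and KLF10 had some of the larger differences among immediate early genes. FOSL1, an AP-1 subunit, had 81.2 and 81.5 with EGF and 75.5 and 76.4 with vehicle (limma adjusted p = 0.149). KLF2, a zinc finger gene, had 79.3 and 79.2 against 71.2 and 70.2 (limma adjusted p = 0.12). KLF10, an early gene of TGF-beta, had 96.3 and 95.6 against 99.5 and 99.5 (limma adjusted p = 0.0576), with 2 peaks in both EGF libraries and 1 in both controls. None of the 3 passed the threshold, although their arms did not overlap. At NR4A1, an orphan nuclear receptor, 2 regions at annotated starts were lost. One had percentiles of 11.2 and 21.1 in the control libraries (chr12:52056029-52056708) and the other 15.8 and 34.1 (chr12:52056862-52057801), while the highest-ranked promoter region of the gene was at 99.6 to 99.7 in all 4 libraries. A region nearest FOSL2, another AP-1 subunit, was strictly lost, at 35.5 and 14.7 in the control libraries (chr2:28326208-28326674).

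The feedback inhibitors of the MAP kinase pathway had open promoters in all 4 libraries at 22 of 22 genes. Their median promoter difference was 0.461 points and no promoter passed the test. SOCS3, a cytokine signalling inhibitor, had 75.1 and 77.9 with EGF and 40 and 58.2 with vehicle (difference 27.4 ± 6.27, limma adjusted p = 0.147). ERRFI1, which binds and inhibits EGFR, had 68.7 and 72.1 against 44.2 and 62.9 (difference 16.9 ± 6.49, limma adjusted p = 0.28). A distal region nearest ERRFI1 was strictly gained and held AP-1, with percentiles of 29.3 and 39 (chr1:8097402-8097746). DUSP10, a phosphatase of JNK and p38, had an intronic gained region with AP-1 at 4.01 and 4.5 (chr1:221712269-221712583). It was near the bottom of the lists and not strictly gained. Of 174 regions near the list, 2 were gained and 7 lost, where 0.814% and 5.82% of all regions were. The lost ones included promoter regions of SPRY4 and ETV4. With equal numbers 1.72% were gained and 2.3% lost, against 2.05% and 1.95% near all genes. Over the 117 tested regions within 100 kb that had a gene of the list as nearest gene, the median difference was 2.4 points, and 41% had both EGF libraries above both control libraries, against 25.6% near all genes. Shares were also above that near the TGF-beta list (46.9% of 49), the immediate early list (37.9% of 145) and the markers of other cell types (52% of 25), so this was not particular to the MAP kinase list.

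Among the ERBB receptors and their ligands, 9 of 15 promoters were open in all 4 libraries and none passed the limma test. ERBB2, which encodes HER2, was at the 100th percentile in every library. Of 62 regions near the list, 3 were strictly gained, where 0.596% of all regions were. An intronic region of ERBB2 had percentiles of 35.5 and 24.2 (chr17:39691539-39691846), inside the amplified segment. One in EREG, which encodes the EGFR ligand epiregulin, had 24.6 and 10.6 and held AP-1 (chr4:74374593-74374853). One 57011 bp from EGFR had 14.7 and 12.6 (chr7:54961795-54962116). The promoter of AREG, which encodes amphiregulin, had 65.3 and 69.7 with EGF and 61.3 and 59.1 with vehicle (limma adjusted p = 0.291). Of the 4 libraries, ERBB4 was open at its promoter in the 2 control libraries only, at 6.07 and 14. This region was lost as deposited, as 5.82% of all regions were, and was not strictly lost. It was open in 26 of the 40 libraries, in neither BT474R baseline library and in both BT474R libraries given EGF for 24 h.

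In the list of steroid receptors and luminal factors 3 of 132 nearby regions were strictly lost and none strictly gained, where 1.28% and 0.596% of all regions were. These counts are too few to set the list apart. GREB1, an oestrogen receptor target, had 2 of them in introns, at 37.9 and 36.8 in the control libraries (chr2:11559004-11559394) and at 23.4 and 29.9 (chr2:11505968-11506430). SPDEF, a luminal ETS factor, had 1 at 37.9 and 25.5 (chr6:34547957-34548378). The median promoter difference of the 14 genes was -0.637 points, with 0 promoters above and 5 below in both libraries, and none passed the test. Over all tested promoter regions, which are not limited to a single region per gene as the list is, 21.7% were above and 19.4% below in both libraries.

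The remaining lists had few called regions. In the TGF-beta list the SMAD6 region above and 1 at SKI were strictly lost and 1 at SMAD3 was strictly gained, out of 69 regions. In the hypoxia and glycolysis list PFKP had 1 strictly gained region and PFKFB4 1 strictly lost, out of 121. The interferon and antigen processing list had no strictly gained or lost region among 61 and the NF-kB list none among 35. Over all regions 0.596% were strictly gained and 1.28% strictly lost. As deposited, 4 interferon regions and 1 NF-kB region were lost and none gained, where 5.82% and 0.814% of all regions were. With equal numbers 3.28% and 2.86% were gained, against 2.05% near all genes, and 1.64% and 0% were lost, against 1.95%. By that count promoter regions of GBP2 and IRF9 were gained, and neither was gained as deposited. The GBP2 region had a peak in all 4 deposited lists, at percentiles of 22.8 and 14.8 with EGF and 13.6 and 8.56 with vehicle. Its control peaks fell below the cut to equal numbers. IRF9 encodes a subunit of the interferon-stimulated transcription complex. A different promoter region of it, open in all 4 libraries, had 74.1 and 71.6 with EGF and 64 and 63.8 with vehicle (difference 8.99 ± 2.25, limma adjusted p = 0.162). IRF1, an interferon-response factor, had 71.3 and 64.6 against 61.1 and 62.7 (limma adjusted p = 0.407). In the lipid synthesis list FASN was the only gene called, and its 8 promoters had a median difference of -0.0679 points.

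The other lists of the series show where else the gained regions were open. At baseline in BT474R, 1.04% of the 481 gained regions were open in both libraries, against 71.8% of all regions, 26.3% of lost regions and 13.6% of regions open in 1 library of each arm. With HRG for 1 h 49.1% of gained and 38.2% of lost regions were open in both libraries, against 84.4% of all regions and 40.9% of those open in 1 library of each arm. The control libraries at 12 h and 24 h had 1.25% and 2.7% of gained regions open in both. Over all regions these shares were 52.1% and 67.1%. Regions open in 1 library of each arm had 0.774% and 9.06%, and lost regions 1.02% and 17.2%. Gained regions were thus rarely open in both BT474R baseline or later control libraries, but at 12 h so were these other sets. The 2 baseline lists differed in length, 53007 and 44546 peaks, and 4.99% and 2.29% of gained regions were open in them singly.

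Gained regions were open with EGF at later times as well. At 12 h 18.3% were open in both EGF libraries and at 24 h 60.9%, when 58.3% and 77.5% of all regions were. Gained by the same rule at 12 h were 79 of 481, or 16.4%, where 2.87% of all 59090 regions were gained and 1.09% lost. At 24 h these were 259 of 481, or 53.8%, against 6.6% of all regions gained and 1.11% lost. Most regions were open in the 24 h controls and could not be gained, and of regions open in 1 library of each arm at 1 h 20.7% were gained at 24 h and 2.32% at 12 h. With equal numbers of peaks the counts fell to 35 and 170, or 7.28% and 35.3%, against 2.79% and 3.89% of all regions. At 24 h both EGF libraries were open at 77.1% of gained regions with AP-1 and at 44.8% of those without. Of the 3438 lost regions 16 (0.465%) were lost at 12 h and 61 (1.77%) at 24 h, where 309 (8.99%) were gained. Only 35 and 593 of them were open in both controls at those times and could be lost. With equal numbers 151 (4.39%) were lost at 24 h, against 3.5% of all regions.

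**Figure D5:**
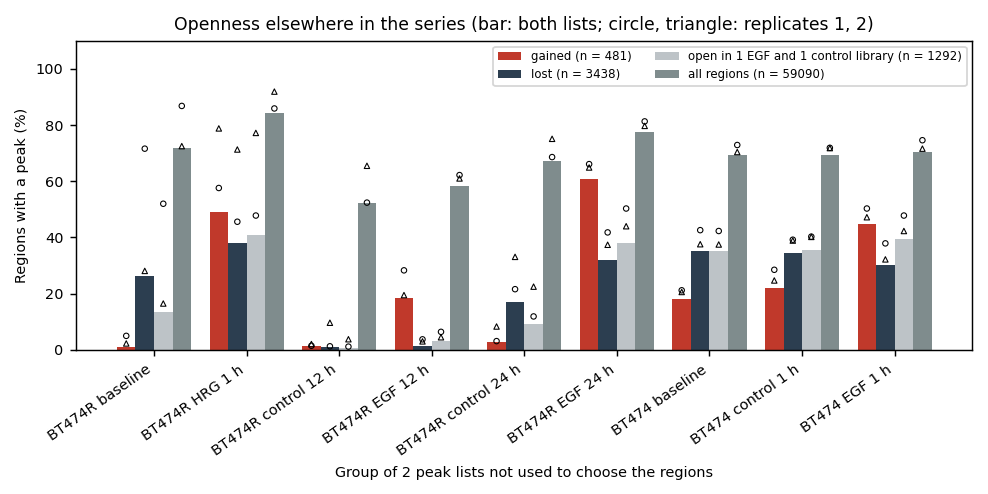
Share of regions (%) open in both libraries (bars) and in each replicate (symbols) of 9 groups that were not used to choose them. Gained regions stand at 1.04% at BT474R baseline and at 60.9% with EGF for 24 h. All regions are shown for comparison, at 71.8% and 77.5%.

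In the sensitive parent line, 22% of the regions gained in BT474R were open in both control libraries at 1 h and 44.9% in both EGF libraries. Over all regions these shares were 69.2% and 70.4%, and over regions open in 1 library of each arm 35.6% and 39.4%. By the same rule 74 of 481, or 15.4%, were also gained with EGF at 1 h in BT474, against 1.68% of all regions, and none was lost, against 0.77%. With equal numbers of peaks 61 were gained. Of the lost regions 89 of 3438, or 2.59%, were also lost in BT474. MYO5B, BORCS5 and COA1 were open in both EGF and in neither control library of BT474. MAP2K6, PFKP and SCMH1 were open in all 4 of them, and GDF15, PLK2, NTN4 and SAT1 in none.

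The EGF effect on rank was compared between the lines at 1 h with an interaction term in limma, over the 32450 regions with a top peak in all 8 lists. It was more positive in BT474R at 16 regions (0.0493%) and more negative at 31 (0.0955%). At 34 of the 47, or 72.3%, the arms of at least 1 line differed in the number of peaks, against 1.54% of tested regions. The region past the 3′ end of PLK2 was at 80.8 and 79.6 with EGF and at 22.6 and 18.4 with vehicle in BT474. EGF thus went with a higher rank there in both lines, by 22 points in BT474R and 59.7 in BT474 (interaction -37.7 ± 2.95, limma adjusted p = 0.0146). The control values in BT474R were already at 76.5 and 75, on a scale that ends at 100. The IP6K3 region was at 34 and 34.4 with EGF and 42.8 and 44.1 with vehicle in BT474, so that the lines had opposite signs, with 1 peak in every library but the BT474R controls, which had 2 (interaction 34.6 ± 2.91, limma adjusted p = 0.0175). EPS8L2 was at 91.1 and 92.4 against 92.6 and 92.8 in BT474, where BT474R had 65.6 and 64.4 against 87.6 and 88.4 and 2 peaks in both EGF libraries (interaction -22.1 ± 1.22, limma adjusted p = 0.00356). The FASN gene body was covered over 3653 and 2877 bp with EGF and over 10480 and 9398 bp with vehicle in BT474, lower with EGF as in BT474R.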

How the data were processed

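ATAC-seq peak lists of 4 BT474R libraries were analysed, 2 given EGF and 2 given vehicle for 1 h, with the other 36 lists of the series for comparison. Per the study's methods, reads were trimmed with TrimGalore (0.6.6 in the submitters' processing notes), mapped to GRCh38 with BBMap and sorted with samtools. Peaks were called with Genrich in each library, without pooling, and mitochondrial and blacklisted reads were removed. Genrich options, which affect peak width and number, were not given in the sources used. The score the authors deposited is the area under the significance curve, at least 200 in all 40 lists. It grows with peak width and with depth, so it was used as a rank within a list. The −log10 p the authors deposited ranked the peaks in an alternative, and the −log10 q was not used. Read counts were not analysed here, so the study's count-based differential analysis was not repeated.

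Peaks on chromosomes 1 to 22 and X were kept, leaving out 28 to 31 per list on other sequences, and no peak passed the end of its chromosome in hg38. Regions were merged at 1 bp, placed on GENCODE release 44 and assigned to the nearest protein-coding transcript start, within 100 kb for gene lists. A region's value was its highest-scoring peak. Ranks were fitted with limma 3.58.1 (R 4.3.3) with a mean-variance trend and Benjamini-Hochberg adjustment, and the fit was tested on simulated data. Motifs were searched on both strands within 100 bp of the summit. Peak totals were compared by exact permutation. Members, gene lists and tests were chosen with earlier results of these data known. Regions were named as the 10 strictly gained and 10 strictly lost of highest mean percentile, the 29 rank calls, and called regions at or near list genes. FASN and PLK2 coverage and the ERBB2 segment were chosen after the values were seen. Values of some genes and regions are not reported here, though counts include them. Python 3.11.15, pandas 2.3.3, scipy 1.17.1 and pysam 0.24.0 were used.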

Additional observations from a re-analysis of the deposited data

Results flagged for a closer look

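The EGF effect on rank differed between the lines at 47 regions by the limma interaction term, 16 with a more positive and 31 with a more negative effect in BT474R than in BT474. Of these, 9 were also called within BT474R. At 34 of the 47 the arms of at least 1 line differed in the number of peaks called, against 1.54% of tested regions. Subtracting the BT474 effect from the BT474R effect gave -12.5 points at TSNARE1, -14.8 at TMEM143, -22.1 at EPS8L2, -3.96 at TTC7B, -12 at SLC26A1 and -11.6 at TG. At these 6 the rank was lower with EGF in BT474R, and in BT474 the difference was between 0.0558 and -4.12 points. At PLK2 the value was -37.7, with a higher rank after EGF in both lines, and at IP6K3 it was 34.6, with opposite signs. The promoter of KLF10 was among the other regions, at 96.3 and 95.6 with EGF and 99.5 and 99.5 with vehicle in BT474R and between 99.7 and 99.8 in all 4 BT474 libraries (limma adjusted p = 0.0238). Libraries of the 2 lines were set side by side by rank only.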

How the results depend on the processing

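The AP-1 difference kept its direction under every alternative run. The median rank difference of regions with AP-1 exceeded that of the others by 4.38 to 5.76 points with each left-out library, filter or ranking on the equal-number scale, by 4.15 points on deposited percentiles and by 0.18 on the log2 score scale, a set of alternatives chosen after seeing the data. The AP-1 share of gained regions was 43.2% and of lost regions 1.72% with equal numbers of peaks. The split between gained and lost did not hold: 12.3% of called regions were gained as deposited and 51.5% with equal numbers (1292 gained, 1219 lost), and a score of at least 400 gave 276 gained. Leaving out 1 library gave 680 to 1420 gained and 4057 to 6682 lost regions, with 1420, 929 and 835 gained without EGF replicate 2, control replicate 1 and control replicate 2, and 6682 and 6029 lost without EGF replicate 1 and control replicate 2. The promoter share of peaks was 1.71 points higher with EGF as deposited and -0.0453 with equal numbers. Promoters within 3 kb made up 27.4% of gained and 33.7% of lost regions. With equal numbers 35 gained regions were gained again at 12 h and 170 at 24 h, and 151 lost regions were lost again at 24 h. Within 10 kb, 3 genes of the lists had a strictly gained region.

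Rank calls (9 higher, 20 lower) became 42 and 180 on deposited percentiles, where the median difference was -3.27, 187 and 172 on quantile-normalized log2 scores, 205 and 187 on summed scores, with 4 of the 29 named regions among them, 33 and 42 over all regions with a peak in all 4 lists, 80 and 7 by −log10 p, an alternative added after seeing the data, and 0 and 0 without a mean-variance trend (7249 with an unadjusted p under 0.05). Leaving out 1 library gave 0 to 98 higher and 0 to 21 lower, with 98 and 21 without control replicate 2, 11 and 1 without control replicate 1, and 0 and 0 without either EGF replicate. The 29 named regions kept their direction in 340 of 348 refits and their call in 156. Signs turned by −log10 p at IKZF3 (-0.0379), TSNARE1 (1.07), PHLDA3 (0.748), HMGN4 (0.903) and KREMEN2 (4.6), and on summed scores at TSNARE1 (0.0151). The interaction counts (16 and 31) were 1 and 0 without a trend, 11 and 70 on deposited percentiles, and 12 to 91 and 9 to 84 without 1 library, with 91 more positive without BT474R control replicate 2 and 57, 50, 84, 9 and 12 more negative without BT474R EGF replicates 1 and 2, BT474R control replicate 1 and BT474 EGF replicates 1 and 2. The causes were not tested.

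The replicate numbers did not pair the libraries, since the rank deviations of same-numbered libraries had a correlation of -0.0452 over 40996 regions. With a replicate block 3 regions were higher and 5 lower, the interaction gave 0 and 2, and the peak number and promoter share differed by -5886.5 and 1.71 points as before. Of 80 presence values of the 20 named regions, 74 stayed and 6 moved by 1 library. Depth is unknown and limits what a missing peak can show.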
